A study of Mus musculus with 10 samples.

Results

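The UDP-glucuronosyltransferases described here are 10 mouse genes, taken as the rows of the deposited liver table that carry the symbols Ugt1a1, Ugt2a3, Ugt2b1, Ugt2b5, Ugt2b34, Ugt2b35, Ugt2b36, Ugt2b38, Ugt3a1 and Ugt3a2. All 10 symbols were found among the 24972 gene rows. Livers of mice bearing a T cell-low tumour (n = 4) were compared with livers of mice bearing a T cell-high tumour (n = 6), to ask how the liver differs with the T cell content of a distant pancreatic tumour. Line 6419c1 gave the T cell-low tumours and line 6555c3 the T cell-high ones, both derived from KPC pancreatic ductal adenocarcinoma, a mouse model of pancreatic cancer, and the genotype of all samples is given as WT. Each group rests on 1 line, so tumour line and T cell class cannot be told apart. The labels used here name no age, sex or tumour site, and do not say that each library came from its own mouse, so p-values measure the spread between libraries, which may be technical. Total liver RNA was read from transcript 3′ ends (QuantSeq FWD libraries), and a value below is a scaled count, the authors' gene count brought to a common depth.

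UDP-glucuronosyltransferases sit in the endoplasmic reticulum membrane and join a sugar, usually glucuronic acid from UDP-glucuronate, to small fat-soluble molecules, which can then leave in bile or urine. The liver uses them to clear bilirubin, steroid hormones, bile acids and many drugs. UGT1 and UGT2 enzymes use UDP-glucuronate, while the human UGT3 enzymes prefer other UDP-sugars. The Ugt1a genes are separate first exons spliced to a common set of later exons, whereas each Ugt2b and Ugt3a gene has exons of its own.

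Scaled totals were between 7000659 and 8257373 per library, and 13370 to 14300 genes had a value above 0. Hepatocyte markers were abundant in every library, their sum over 7 genes being 379745 to 531515 in T cell-low livers, against 256884 to 539214 in T cell-high livers. Of 5 kidney tubule markers, which would mark another organ rich in these enzymes, 4 were listed at 0 in all libraries. Neutrophil markers stood apart between the groups (7 genes, summed 619.9 to 1702 in T cell-low livers, against 38.5 to 204.9 in T cell-high livers). So did a list of bile duct and epithelial tumour markers (7 genes, 315.9 to 478.1 against 141.5 to 253.0) and one of exocrine pancreas (5 genes, 101.4 to 173.1 against 251.7 to 456.6). These sums rest on few genes. A mean of at least 10 was reached by 3 neutrophil genes, 4 bile duct and tumour genes and 1 exocrine pancreas gene. Of those, 3, 1 and 1 were called. Immediate early genes, a sign of tissue handling, summed to 1280 to 7912 in T cell-low livers, against 594.3 to 2239 in T cell-high livers. Their part in the results below was not tested. The T cell-high libraries were not uniform. In 93 genes T cell-high 1, 3, 5 and 6 each exceeded every other library by 1 log2 unit or more, and in 5 genes they lay as far below. Ugt3a1 and Ugt1a6b are among the 93, so for these genes a comparison that leaves those libraries in or out moves in a direction fixed by how the libraries were told apart, and its values are a description. T cell-low 1 had a mean correlation over genes of 0.861 with the other T cell-low libraries and 0.936 with the T cell-high libraries. Results are therefore also given without those 4 T cell-high libraries, and without T cell-low 1.

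Of the 10 genes, 9 had a mean of at least 10 scaled counts and were tested. Ugt3a1, Ugt2b34, Ugt2b5 and Ugt2b35 fell in T cell-low livers, none rose, and 5 did not pass. Over all 11110 genes tested, 7.39% were called lower and 5.39% higher, 12.8% in all (limma, adjusted p below 0.05). The median log2 fold change, T cell-low minus T cell-high, was -1.11 over the 9 tested members and 0.003 over all genes tested. In such bulk samples a lower count from fewer cells of a type and from less RNA per cell cannot be told apart.

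**Figure D1:**
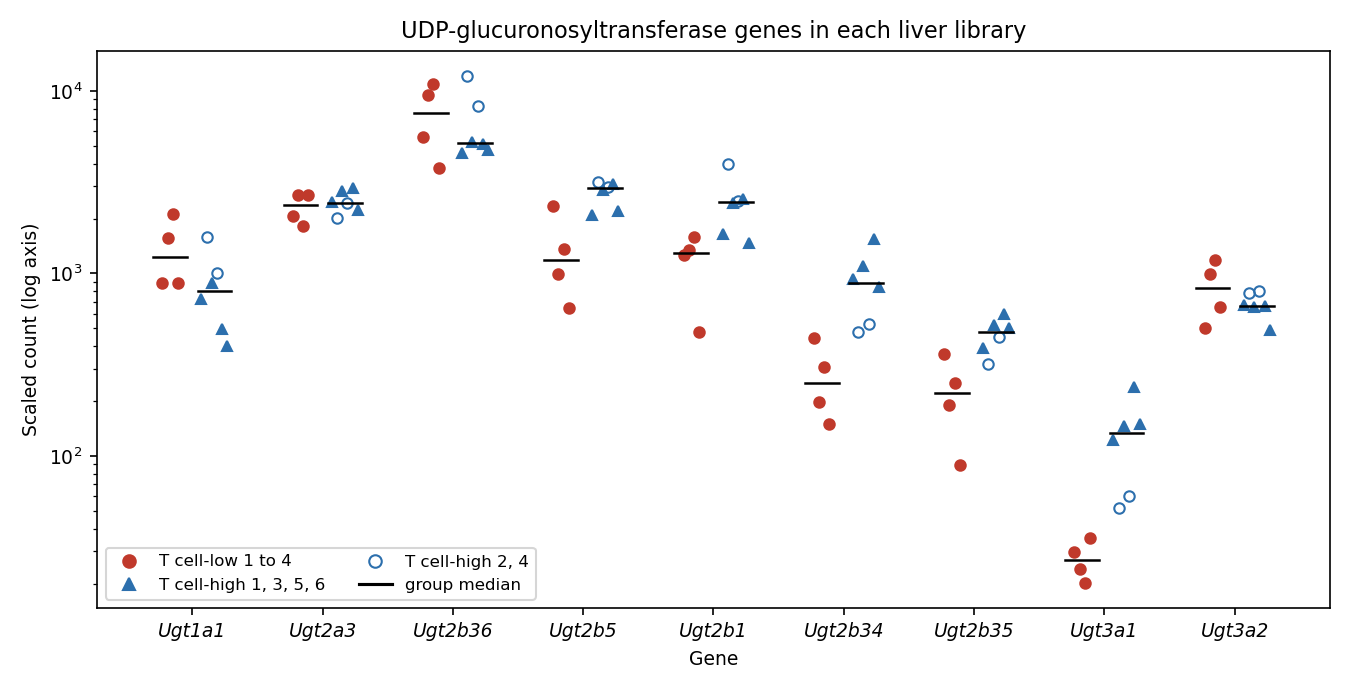
Scaled counts (log axis) of the 9 tested genes in each of the 10 libraries, T cell-low at the left of each pair, with T cell-high 1, 3, 5 and 6 as triangles and T cell-high 2 and 4 as open circles; black lines are group medians. For Ugt3a1 the T cell-low libraries sit between 20.3 and 35.6 and the T cell-high libraries between 52.1 and 238.3, whereas Ugt2a3 stays between 1829 and 2958 in all.

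Ugt3a1 (GRCm38 chromosome 15, 9276888 to 9315032, plus strand) showed the largest difference among the 9 genes. In human the enzyme uses UDP-N-acetylglucosamine and can conjugate bile acids. It had 29.7, 24.0, 20.3 and 35.6 scaled counts in T cell-low 1 to 4, against 122.3, 52.1, 146.5, 60.6, 238.3 and 149.4 in T cell-high 1 to 6. The groups did not overlap, as was so for 4.02% of all genes tested with the T cell-low group below, and 3.37% with it above. Within the T cell-high group, libraries 2 and 4 were the lowest and lay nearest to the T cell-low values. The means were 27.4 ± 6.73 (SD, n = 4) and 128.2 ± 68.3 (SD, n = 6). The log2 fold change, taken between group means of log2(scaled count + 1), was -2.03 (SE 0.40, adjusted p = 0.0143, limma). On that scale the level was 4.09-fold higher in T cell-high livers.

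Its neighbour Ugt3a2 (chromosome 15, 9335550 to 9370955, plus strand) did not share this difference in a way that passed the test. The human enzyme uses UDP-glucose and UDP-xylose. Ugt3a2 had 502.7, 997.5, 1190 and 659.1 scaled counts in T cell-low 1 to 4, against 672.7, 786.3, 652.3, 797.9, 661.3 and 486.9 in T cell-high 1 to 6. The T cell-low libraries held both the highest values and one of the lowest, and the groups overlapped. Its log2 fold change was 0.25 (SE 0.25, adjusted p = 0.50), with a 95% interval from -0.29 to 0.78. The difference between the changes of the 2 Ugt3a genes was itself not tested.

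The Ugt2 genes lie in one block of chromosome 5, and the UGT2B enzymes act mainly on steroids, bile acids and drugs. Ugt2b34 (chromosome 5, 86889767 to 86906937, minus strand) had 444.9, 197.8, 305.6 and 148.7 scaled counts in T cell-low 1 to 4, against 934.2, 480.2, 1092, 530.0, 1545 and 847.4 in T cell-high 1 to 6. As for Ugt3a1, no T cell-low library reached the lowest T cell-high library, and T cell-high 2 and 4 were again the lowest of their group. Its means were 274.3 ± 131.3 (SD, n = 4) and 904.7 ± 392.2 (SD, n = 6), and the log2 difference was -1.73 (SE 0.36, adjusted p = 0.0180).

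Ugt2b5 (chromosome 5, 87124960 to 87140318, minus strand) had 2350, 996.2, 1367 and 643.2 scaled counts in T cell-low 1 to 4, against 2082, 3183, 2875, 2969, 3087 and 2212 in T cell-high 1 to 6. Here T cell-low 1 lay inside the T cell-high range while T cell-low 2, 3 and 4 lay below it. T cell-high 2 and 4, the lowest of their group for Ugt3a1 and Ugt2b34, were among its higher libraries for Ugt2b5. On the log2 scale the difference was -1.17 (SE 0.30, adjusted p = 0.0295), and the means were 1339 ± 736.0 (SD, n = 4) and 2735 ± 468.7 (SD, n = 6).

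Ugt2b35 (chromosome 5, 87000860 to 87013275), the one gene of the family here on the plus strand of that block, had 359.8, 189.7, 250.4 and 88.9 scaled counts in T cell-low 1 to 4. The T cell-high libraries 1 to 6 had 389.5, 320.0, 522.7, 450.0, 597.1 and 501.0. The overlap came from T cell-low 1, which exceeded T cell-high 2 alone. Its log2 fold change was -1.20 (SE 0.33, adjusted p = 0.0369), with means of 222.2 ± 113.4 (SD, n = 4) and 463.4 ± 99.0 (SD, n = 6).

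Ugt2b1 (chromosome 5, 86916638 to 86926530, minus strand), whose rat counterpart conjugates morphine, lay next to the threshold. It had 1262, 1338, 1591 and 478.8 scaled counts in T cell-low 1 to 4, against 1649, 4002, 2436, 2496, 2552 and 1460 in T cell-high 1 to 6. The groups overlapped through T cell-high 6 and T cell-low 3. The log2 fold change of -1.11 (SE 0.35) had an adjusted p of 0.0512 (limma). It passed in 6 of 23 alternative fits, among them that with every library brought to the same total (adjusted p = 0.0411), and the adjusted p ranged from 0.0311 to 0.530 over the 23.

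Ugt2b36 (chromosome 5, 87065927 to 87092555, minus strand) gave the most signal of the 10 genes and did not pass. It had 5613, 9495, 10878 and 3800 scaled counts in T cell-low 1 to 4, against 4576, 12067, 5284, 8230, 5152 and 4730 in T cell-high 1 to 6. Both groups spread over about the same range, with T cell-high 2 and 4 and T cell-low 2 and 3 as the 4 highest libraries. The log2 fold change was 0.14 (SE 0.34, adjusted p = 0.799), and its 95% interval ran from -0.60 to 0.88. The sign turned to -0.54 without T cell-high 1, 3, 5 and 6.

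Ugt2a3 (chromosome 5, 87324972 to 87337195, minus strand), a bile acid conjugating enzyme in human, varied least of the 9. It had 2059, 2704, 1829 and 2682 scaled counts in T cell-low 1 to 4, against 2454, 2022, 2831, 2442, 2958 and 2239 in T cell-high 1 to 6. The coefficient of variation was 19.1% within T cell-low and 14.1% within T cell-high libraries. For Ugt2a3 the log2 fold change was -0.11 (SE 0.19, adjusted p = 0.694), with a 95% interval from -0.51 to 0.29. Ugt2b38 (chromosome 5, 87409942 to 87424203, minus strand) was the member left untested, with 1.76, 0, 0 and 0 scaled counts in T cell-low 1 to 4 and 0.857, 7.80, 0, 7.12, 0 and 1.59 in T cell-high 1 to 6. Whether a value listed at exactly 0 means no reads or a failed estimate cannot be told from the table.

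Promoter sequence is shown for Ugt2b5, which fell, and Ugt2b36, which did not pass, because these neighbouring genes both hold a nuclear receptor core near their start, and for Ugt2b34 and Ugt3a1, the members whose groups did not overlap. The windows are the 250 bases before each RefSeq start (GRCm38.p6), at chr5:87140341-87140590, chr5:87092556-87092805 and chr5:86906938-86907187 on the minus strand and chr15:9279579-9279828 on the plus strand, each written 5′ to 3′. Capitals mark the nuclear receptor core AGGTCA or the TATA box word TATAAA on either strand, and the Ugt2b34 window held neither. The Ugt3a1 window lies inside the gene span given above, its RefSeq start being downstream of the start of that span.
Ugt2b5: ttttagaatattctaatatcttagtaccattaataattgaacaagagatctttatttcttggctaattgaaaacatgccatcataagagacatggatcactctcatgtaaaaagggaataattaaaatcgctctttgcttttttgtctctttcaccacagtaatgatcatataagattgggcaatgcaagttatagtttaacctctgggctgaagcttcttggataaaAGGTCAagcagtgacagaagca
Ugt2b36: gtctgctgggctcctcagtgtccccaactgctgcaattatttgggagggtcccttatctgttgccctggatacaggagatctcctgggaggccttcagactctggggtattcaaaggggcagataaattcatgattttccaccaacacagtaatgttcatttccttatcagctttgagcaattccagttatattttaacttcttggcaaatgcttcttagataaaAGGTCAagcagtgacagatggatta
Ugt2b34: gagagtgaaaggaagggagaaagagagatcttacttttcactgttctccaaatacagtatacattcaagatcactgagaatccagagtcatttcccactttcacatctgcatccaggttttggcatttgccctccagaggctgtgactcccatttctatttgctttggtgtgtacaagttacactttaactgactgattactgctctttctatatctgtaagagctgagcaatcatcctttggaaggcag
Ugt3a1: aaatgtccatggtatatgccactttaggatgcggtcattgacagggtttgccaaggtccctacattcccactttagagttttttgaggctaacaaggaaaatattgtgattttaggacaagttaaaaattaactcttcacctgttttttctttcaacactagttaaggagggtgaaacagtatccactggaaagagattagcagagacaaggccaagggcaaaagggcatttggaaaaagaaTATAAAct
The Ugt2b5 and Ugt2b36 windows were 59.3% identical over 270 aligned positions, where the 2 windows of Ugt2b5 and Ugt2b38 were 81.5% identical and those of Ugt2b5 and Ugt3a1, from another branch, 50.2%. Both the Ugt2b5 and the Ugt2b36 window held AGGTCA, starting 22 and 25 bases before the transcript start. A promoter window was found for 9 of the 10 genes, that of Ugt3a2 not being in the table. Of these 9, AGGTCA was in 4 (Ugt2b5, Ugt2b35, Ugt2b36 and Ugt2b38), and 14.0% of 32851 mouse promoter windows of the same length held it. The STAT element TTCNNNGAA, the AhR core GCGTG and the NRF2 core TGACNNNGC were in 0 of 9, against 7.02%, 28.2% and 10.2% of all windows, and TATAAA was in 1, that of Ugt3a1, against 12.4%. It starts 8 bases before the RefSeq start there, and whether it acts as a TATA box was not tested. All were searched on both strands, and no 2 of these hexamers or elements are the same word. AGGTCA was found both in members that fell and in one that did not pass.

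**Figure D2:**
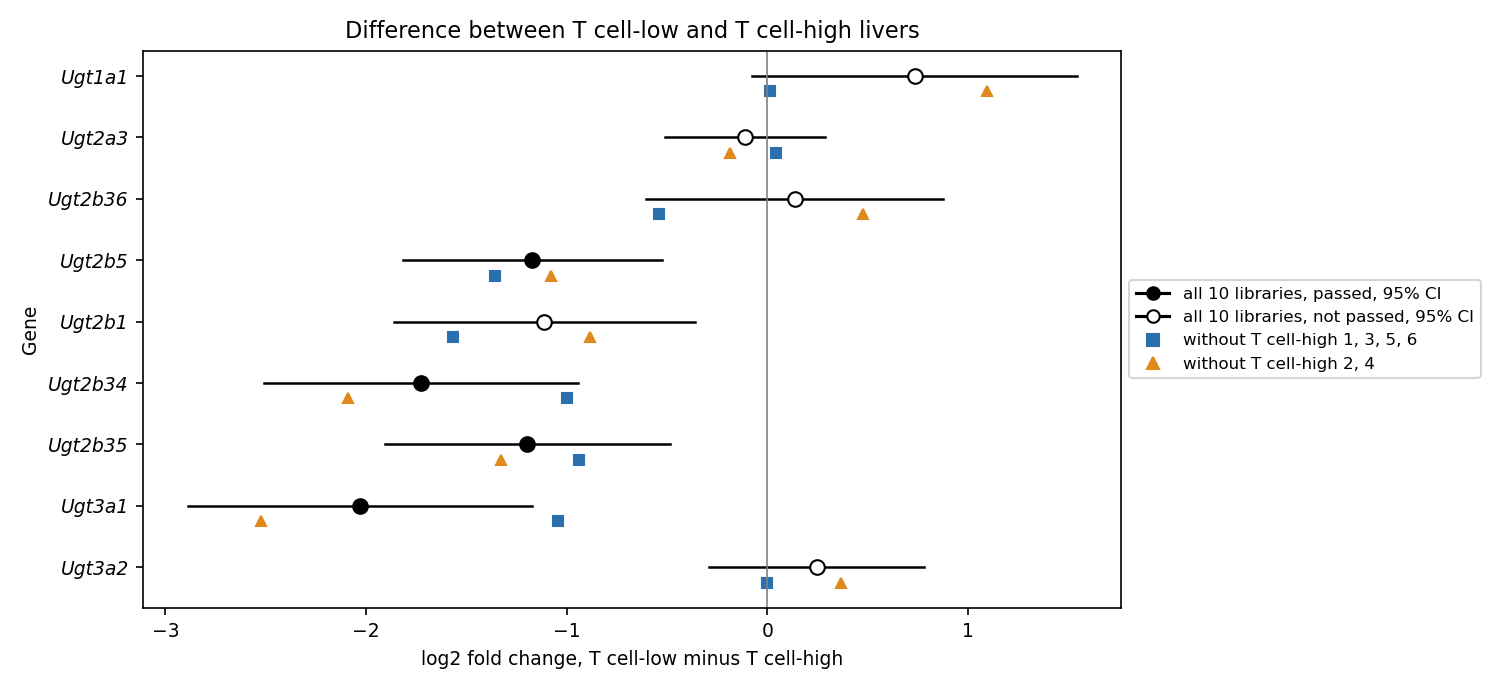
Log2 fold change (T cell-low minus T cell-high) of the 9 tested genes with the 95% interval; filled circles passed at an adjusted p below 0.05, squares leave out T cell-high 1, 3, 5 and 6, and triangles leave out T cell-high 2 and 4. Ugt3a1 is at -2.03 with all libraries, at -1.04 as a square and at -2.53 as a triangle.

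The T cell-high libraries were also compared in parts, with Ugt3a1 subject to the limit given above. Against T cell-high 2 and 4 alone the log2 fold changes were -1.04 (SE 0.44) for Ugt3a1, -1.001 (SE 0.44) for Ugt2b34, -0.94 (SE 0.51) for Ugt2b35 and -1.36 (SE 0.46) for Ugt2b5. No member passed in that fit, nor did any of the genes tested by limma (0 at an adjusted p below 0.05, 1014 at an unadjusted p below 0.05). Against T cell-high 1, 3, 5 and 6 alone the same 4 genes passed, with -2.53 (SE 0.29) for Ugt3a1, -2.09 (SE 0.34) for Ugt2b34, -1.33 (SE 0.37) for Ugt2b35 and -1.08 (SE 0.35) for Ugt2b5. Thus Ugt2b5 had the smaller difference in this fit, unlike the other 3 genes. The differences between the fits were not tested. Ugt1a1 was called higher against T cell-high 1, 3, 5 and 6 (1.09, SE 0.34, adjusted p = 0.0415), and had 0.014 (SE 0.42, adjusted p = 0.991) against T cell-high 2 and 4. The Ugt1a1 row shares its transcript end with Ugt1a6b, one of the 93 genes that set those libraries apart. Its values in these 2 fits are therefore a description too. Leaving out T cell-low 1 gave 5 members lower, Ugt2b1 being added to the 4. Without T cell-low 2 no member passed, without T cell-low 4 Ugt3a1 alone did, and without T cell-low 3 or any one of T cell-high 1, 3, 5 and 6 Ugt3a1 and Ugt2b34 did. Without T cell-high 4 Ugt2b35 was lost (3 members left). Calls over all genes tested moved in these fits too, from 821 lower to 1909 without T cell-low 1 and to 67 without T cell-low 2.

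Likeness between members crossed the branches of the family. As a measure of likeness, each gene's log2 values were centred on its own mean and the mean absolute difference was taken between genes over the 10 libraries, which share depth and group. The closest pair was Ugt2b5 and Ugt2b35 (0.252), followed by Ugt2b36 and Ugt3a2 (0.288). Ugt3a1 was nearest to Ugt2b34 (0.398) and far from its neighbour Ugt3a2 (1.22). The most unlike pair was Ugt1a1 and Ugt3a1 (1.57).

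**Figure D3:**
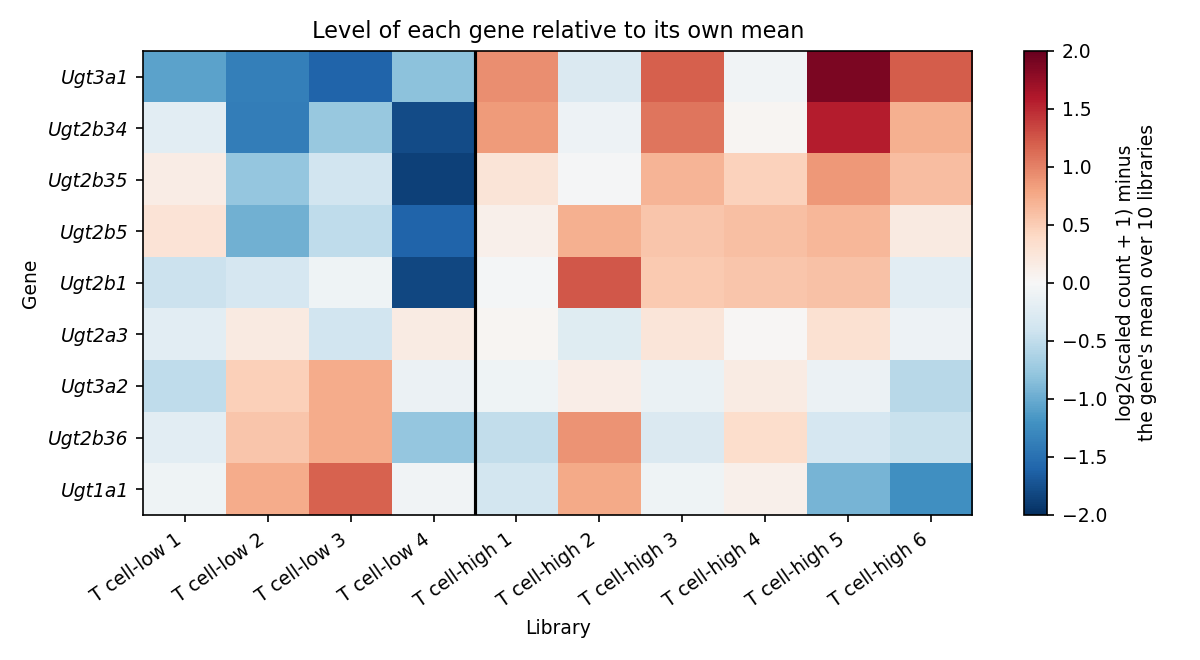
Log2(scaled count + 1) of each tested gene minus the gene's mean over 10 libraries, with T cell-low libraries left of the black line and T cell-high libraries right of it. Ugt3a1 runs from -1.61 in T cell-low 3 to 1.89 in T cell-high 5, and Ugt1a1 from 1.18 in T cell-low 3 to -1.23 in T cell-high 6.

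Outside the family the same measure was taken for the 3 members of highest mean. Ugt2b36 was closest to Apoc4 (0.147), Eri3 (0.149) and Tcf7l2 (0.149), with a median of 0.632 over all other genes. Ugt2a3 was closest to Pam16 (0.0796), Larp1 (0.0814) and Marc1 (0.0896), with a median of 0.476. Ugt2b5 was closest to Mrpl49 (0.110), Adtrp (0.135) and Abcd3 (0.140), with a median of 0.736. Mrpl49 encodes a mitochondrial ribosomal protein and Abcd3 a peroxisomal membrane transporter.

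Since reads come from transcript ends, scaled counts were not divided by transcript length, and shares of the summed signal compare ends, not lengths. The 10 genes together had 9426 to 19559 scaled counts in T cell-low livers, against 13027 to 24502 in T cell-high livers, so their sums overlapped. Ugt2b36 made up 40.3 to 55.6% of the sum in T cell-low livers, against 29.8 to 49.3% in T cell-high livers. For Ugt2b1 the share was 5.08 to 9.34% in T cell-low livers, against 11.2 to 16.3% in T cell-high livers, and for Ugt1a1 6.54 to 10.9% against 2.86 to 6.45%. Neither range overlapped, though those of Ugt1a1 nearly touched, and the shares of all other members overlapped. The sum leaves out Ugt1a5 and Ugt1a6b, whose reads cannot be told from those of Ugt1a1. The Ugt1a rows added together went the other way (means 3320 in T cell-low against 7849 in T cell-high livers, not tested). How often shares separate over all genes was not computed. Shares within a sum are not independent of each other.

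Ugt1a1, the enzyme that conjugates bilirubin, needs a separate account, because its reads cannot be told from those of the other Ugt1a genes. Its gene (chromosome 1, 88211959 to 88218997, plus strand) is 1 of 9 annotated Ugt1a genes that share a last exon starting at 88218127. The last 400 bases of its transcript were cut into overlapping words of 50 bases, and 100% of these occur in other Ugt1a genes. For the other 9 members at most 0.6% of such words occur in another gene. The deposited Ugt1a1 row had 883.5, 1574, 2127 and 889.9 scaled counts in T cell-low 1 to 4, against 726.3, 1580, 882.8, 1008, 493.8 and 398.3 in T cell-high 1 to 6. The groups overlapped, T cell-high 5 and 6 being lowest, and the log2 fold change of 0.73 (SE 0.37, adjusted p = 0.181) did not pass.

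Other rows of the locus took very different shares of its signal. Ugt1a6b, of the branch that conjugates small planar phenols, had 2245, 132.2, 24.4 and 1860 scaled counts in T cell-low 1 to 4, against 7047, 34.0, 7611, 1943, 9509 and 8099 in T cell-high 1 to 6. T cell-high 1, 3, 5 and 6 were far above every other library, and T cell-high 2 was close to the lowest. The log2 fold change was -2.89 (SE 1.59, adjusted p = 0.210), and it was 0.40 without those 4 libraries, the gene being among the 93 in which they stand apart. It passed without T cell-high 2 (-4.13, adjusted p = 0.0274), without T cell-high 2 and 4 (-4.54, adjusted p = 0.0216) and with library weights (-4.53, adjusted p = 0.0200), and was -1.64 (adjusted p = 0.502) without T cell-low 3. Ugt1a5 had 632.3, 1106, 1352 and 428.9 scaled counts in T cell-low 1 to 4, against 1044, 2537, 959.4, 1745, 671.6 and 684.0 in T cell-high 1 to 6, with overlapping groups (log2 fold change -0.50, SE 0.41, adjusted p = 0.400). Ugt1a6a passed (-3.01, SE 0.85, adjusted p = 0.0397) on low values, 0, 0, 17.7 and 0 in T cell-low 1 to 4 against 8.99 to 38.1 in T cell-high livers, and its 3′ end is shared as well, so its row is as uncertain as that of Ugt1a1. The call was lost in 11 of 22 alternative fits, among them a pseudocount of 5 (-1.52, adjusted p = 0.0527) and those without T cell-low 2 or 4 or T cell-high 1, 3, 5 or 6 (adjusted p over the 22 fits 0.0187 to 0.555).

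Adding up the Ugt1a rows removes the split of reads among them, if each read was counted once, which the sources used here do not say. This sum was formed after the values were seen and was not tested. It was 3769, 2812, 3521 and 3178 scaled counts in T cell-low 1 to 4, against 8837, 4205, 9464, 4705, 10686 and 9198 in T cell-high 1 to 6. All T cell-low libraries lay below all T cell-high libraries, whereas in the Ugt1a1 row the groups overlapped, and T cell-high 2 and 4 lay nearest to the T cell-low group. The means were 3320 ± 416.5 (SD, n = 4) and 7849 ± 2706 (SD, n = 6). The Ugt1a6b row took 79.8 to 89.0% of the sum in T cell-high 1, 3, 5 and 6, 41.3% in T cell-high 4 and 0.81% in T cell-high 2, against 59.6% and 58.5% in T cell-low 1 and 4 and 4.70% and 0.69% in T cell-low 2 and 3.

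**Figure D4:**
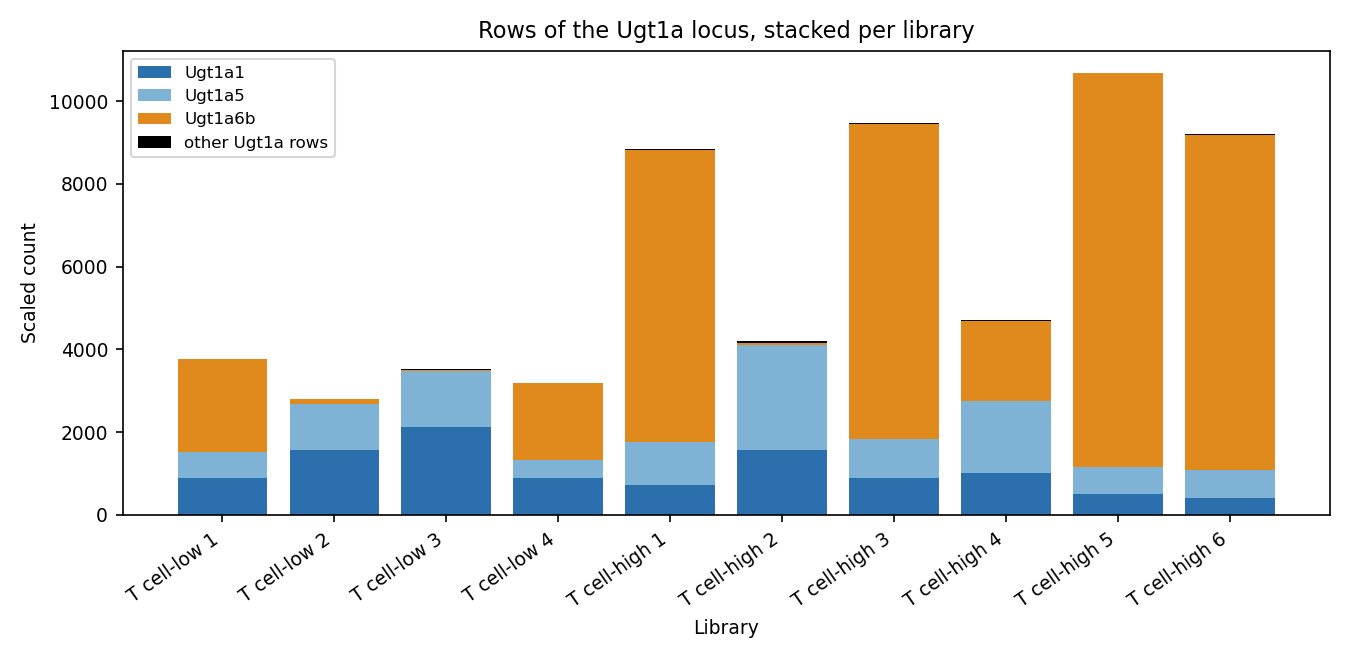
Scaled counts of the Ugt1a rows stacked for each library, T cell-low at the left, with the Ugt1a1, Ugt1a5 and Ugt1a6b rows in colour and the remaining rows in black. The stacks reach 2812 to 3769 in T cell-low livers, against 4205 to 10686 in T cell-high livers, while the Ugt1a1 segment alone does not follow that order.

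Of the other UGT genes in the table, Ugt2b37 had 76.0, 55.0, 28.7 and 2.44 scaled counts in T cell-low 1 to 4, against 40.9, 310.3, 82.5, 210.6, 52.4 and 94.3 in T cell-high 1 to 6. T cell-high 2 and 4 were its highest libraries, and it did not pass (-1.99, SE 0.79, adjusted p = 0.0996). Ugt1a2 was above 0 in T cell-low 1 alone (7.92), Ugt1a9 in T cell-high 2 alone (15.4) and Ugt8a, which uses UDP-galactose in myelin lipid synthesis, in T cell-high 6 alone (0.880). Ugt1a7c, Ugt1a10, Ugt2a1 and Ugt2a2 were listed at 0 in all libraries, and no gene row carried the symbol Ugt1a8.

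Genes listed around the supply of the sugar donor passed in both directions, Pgm1 being the only one that rose. Of 10 genes around UDP-glucuronate supply, all tested, 2 fell, 1 rose and 7 did not pass, with a list median of -0.06. The share called was 30.0%, against 12.8% over all genes tested. Ugdh, the dehydrogenase that makes UDP-glucuronate from UDP-glucose, had 196.5, 61.8, 44.3 and 57.1 scaled counts in T cell-low 1 to 4, against 257.6, 137.9, 336.7, 150.1, 456.8 and 217.4 in T cell-high 1 to 6. T cell-low 1 alone overlapped with the T cell-high group, above T cell-high 2 and 4 (-1.66, SE 0.43, adjusted p = 0.0303). Pgm1, of the phosphoglucomutase family, rose (149.8 ± 71.9 against 41.0 ± 33.1, 2.04, SE 0.53, adjusted p = 0.0311). Pgm2, of the same family, had a mean of 2605 over all libraries, against 84.5 for Pgm1, and did not pass (0.18, SE 0.18). The part of Pgm1 in donor supply was not tested. Ugp2, which makes UDP-glucose, had a log2 fold change of -0.16, and Slc35d1, a carrier of UDP-glucuronate into the endoplasmic reticulum, of -0.29, and neither passed.

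Among 9 genes of ascorbate synthesis and glucuronate breakdown 1 rose, 1 fell and 7 did not pass (22.2% called, against 12.8% over all genes tested, list median -0.93). The gene that rose was Miox, an oxygenase that makes glucuronate from inositol (51.5 ± 34.3 against 1.70 ± 2.30, 4.38, SE 0.77, adjusted p = 0.0118). Xylb, the xylulokinase at the end of the same route, fell (159.0 ± 56.5 against 391.6 ± 132.8, -1.28, SE 0.31, adjusted p = 0.0265). Miox had only 1.85, 0, 0, 5.83, 0 and 2.50 scaled counts in the T cell-high libraries. It reached the mean needed for testing through the T cell-low libraries alone, so the filter favoured a rise. With values so near 0, the size of its change depends on the pseudocount. Its log2 fold change ran from 2.88 to 4.96 over 22 alternative fits. Of 9 genes of glucuronide transport and cleavage, Slco2b1, an organic anion uptake carrier, fell (554.4 ± 121.2 against 913.8 ± 160.2, -0.73, SE 0.20, adjusted p = 0.0367) and 8 did not pass, with a list median of -0.28. The export pumps Abcc2 (0.08) and Abcc3 (-0.32) and the glucuronidase Gusb (-0.28) were among those 8. The share called in this list was 11.1%, against 12.8% over all genes tested.

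Of 4 genes of haem breakdown, the source of bilirubin, Hmox1 rose and 3 did not pass (list median -0.23). This haem oxygenase had 83.0, 95.4, 135.2 and 225.8 scaled counts in T cell-low 1 to 4, against 33.5, 78.9, 49.2, 77.8, 32.4 and 60.0 in T cell-high 1 to 6. The groups did not overlap, though T cell-low 1 was close to T cell-high 2 and 4 (1.25, SE 0.35, adjusted p = 0.0396). Red cell markers (5 genes, summed) were 43059 to 98086 in T cell-low livers, against 19679 to 51907 in T cell-high livers, and their part in the Hmox1 difference was not tested.

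Of 22 regulators known to act on these enzymes, 2 rose, 1 fell and 19 did not pass, with a list median of 0.09. The share called, 13.6%, was close to the 12.8% over all genes tested. Nfe2l2, which encodes the antioxidant response factor NRF2, rose (1256 ± 352.2 against 581.2 ± 127.8, 1.09, SE 0.23, adjusted p = 0.0191), and so did the liver forkhead factor gene Foxa3 (2768 ± 1684 against 909.6 ± 332.2, 1.42, SE 0.42, adjusted p = 0.0449). Nr1h3, the oxysterol receptor LXR alpha, fell (347.9 ± 234.1 against 746.8 ± 199.2, -1.25, SE 0.33, adjusted p = 0.0335). The xenobiotic receptor genes Nr1i2 (0.15), Nr1i3 (0.40) and Ahr (0.37), and the hepatocyte factor gene Hnf4a (-0.30), were among the 19.

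In these 5 lists, with 10, 9, 9, 4 and 22 genes tested, 10 genes passed in total, and 12.8% of all genes tested were called. Leaving out T cell-low 1 made the total 23, T cell-high 2 made it 15, T cell-low 2 or 4 made it 1, and T cell-low 3 or any one of T cell-high 1, 3, 5 and 6 made it 2. Calls over all genes tested moved the same way, from 821 lower and 599 higher to 1909 and 1713 without T cell-low 1. They were 67 and 41 without T cell-low 2, so these moves are not particular to the lists.

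In the fit of all 10 libraries without weights, the other conjugating enzymes that passed all fell. Of 15 tested genes of sulfation, glutathione transfer and methylation 7 fell, none rose and 8 did not pass, with a list median of -0.84. The share called was 46.7%, against 12.8% over all genes tested, on a list chosen with earlier results of these data known. Gstt1, a glutathione transferase, had 591.8 ± 410.7 scaled counts in T cell-low livers, against 2153 ± 379.4 in T cell-high livers (-2.07, SE 0.33, adjusted p = 0.00876). Gstm1, an abundant glutathione transferase, had 4552 ± 2181 in T cell-low livers, against 14501 ± 3433 in T cell-high livers (-1.81, SE 0.34, adjusted p = 0.0125), and the sulfotransferase gene Sult2a8 had 153.0 ± 210.0 in T cell-low livers, against 973.7 ± 392.4 in T cell-high livers (-3.86, SE 0.78, adjusted p = 0.0169). Gstm3 fell too (-3.37, SE 0.55, adjusted p = 0.00916). Without T cell-low 2 or T cell-low 4 the number that fell was 3, and in all these lists it was 0 against T cell-high 2 and 4 alone. Some of these enzymes rose in other fits: without T cell-low 1, 8 fell and 2 rose, and with library weights 9 fell and 2 rose.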

How the data were processed

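RNA in 10 mouse liver libraries was measured by 3′ end sequencing. STAR, DESeq2 and build mm10 are named in the submitters' processing notes without versions. Counter and annotation: not given in the sources used here. Each deposited signal is a gene count that the authors scaled to a common depth and is not whole. Median-of-ratios factors recomputed from it were 1.016165 in all 10 libraries. At most 10.6% of low values per library lay on multiples (within 0.01) of a library's commonest low value, so reads were not recovered, depth is unknown, and no counting interval was computed. The design's test for scaled values applied. Log2(value + 1) was fitted for genes with a mean of at least 10 (11110 genes) by limma 3.58.1 (moderated test, R 4.3.3) with a variance trend, group as the only term and 13.1 degrees of freedom. P-values are two-sided, Benjamini-Hochberg adjusted over all genes tested. Fold changes are on the log2(value + 1) scale, which understates those of low genes. Members and lists were chosen with earlier results of these data known. All members, other UGT rows, up to 4 called genes per list by adjusted p and 3 genes most like each of the 3 members of highest mean were named, except some that are not reported here. Other list genes named in the text were picked with their values in view. Positions are from GENCODE vM21 (GRCm38). The fit was tested on simulated data. Figures used matplotlib 3.10.9.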

Additional observations from a re-analysis of the deposited data

Results flagged for a closer look

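In 63 groups of 4 or 6 libraries, a library far from the rest of its group, by Dixon's gap over range at the 95% level, was seen 9 times, and chance gives about 1 in 20 groups. That rate does not apply to 5 of the 9, where all other libraries of the group were at 0 and the gap equals the range by construction. T cell-low 1 stood alone for Ugdh (196.5 scaled counts, the next T cell-low library at 61.8) and for Nr1h3 (696.8, the next at 263.5), both of them genes that fell in T cell-low livers. The same library was the single one above 0 for Ugt2b38 (1.76) and Ugt1a2 (7.92) in its group. Ugt1a6a stood out at 17.7 in T cell-low 3, the other T cell-low libraries being at 0, and at 38.1 in T cell-high 2, the next at 19.0. T cell-high 2 was also apart for Ugt1a9 (15.4, the others at 0) and Pgm1 (103.3, the next at 46.2). Ugt8a was above 0 in T cell-high 6 alone (0.880).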

How the results depend on the processing

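Directions of Ugt3a1, Ugt2b34, Ugt2b5, Ugt2b35, Ugt2b1 and Ugt1a1 held in all 23 alternative fits, with Ugt1a1 ranging from 0.014 to 1.09. In each count of alternative fits given here, 1 is the median-of-ratios scaling. Its factors were 1 in every library, so it repeats the main fit by construction. The number of members lower was 4 or 5 under the other scalings, pseudocounts, filters, the robust option and library weights, and 0 to 5 with single libraries left out (0 to 0 for members higher). Leaving out T cell-high 2 and 4 gave 1 member higher (Ugt1a1, a description only, as given above), and leaving out T cell-high 1, 3, 5 and 6 gave 0 lower. The replicate block over libraries 1 to 4 gave 1 member lower, 179 genes lower and 95 higher, and the same 8 libraries without the block, added after seeing the data, gave 0, 10 and 11. Deviations of same-numbered libraries correlated at -0.15 to 0.21. Differently numbered libraries were not compared in this way, so whether the numbers pair libraries cannot be told. Of all genes, 821 were lower and 599 higher. The counts were 1834 and 1432 with library weights, 1501 and 1104 when T cell-high 2 and 4 were left out, 1567 and 1304 at an adjusted p below 0.1, 0 and 0 by limma against T cell-high 2 and 4 alone (1014 at an unadjusted p below 0.05), and 67 to 1909 and 41 to 1713 with single libraries left out. Reversals were of members and rows that had not passed. Without T cell-high 1, 3, 5 and 6 the log2 fold change was 0.041 for Ugt2a3, -0.54 for Ugt2b36, -3.5e-05 for Ugt3a2 and 0.40 for Ugt1a6b. For Ugt2b36 it was also -0.031 in the 8 libraries with or without the block, and -0.085 to 0.42 with single libraries left out. The cause was not tested. A common total per library moved the median of all genes to -0.12, against 0.003. The planned package form of the trimmed-mean scaling was not run, since the values are not counts, and an unweighted trimmed mean took its place.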
